A study of Mus musculus with 6 samples.

Results

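The transcripts described here are 10 mouse long noncoding RNA genes, taken by their symbols: *Malat1*, *Neat1*, the small nucleolar RNA (snoRNA) hosts *Gas5*, *Snhg1*, *Snhg8*, *Snhg12* and *Snhg18*, the microRNA hosts *Mir22hg* and *Mir17hg*, and *Miat*. All 10 were listed among the 25140 genes of the deposited count table, and 8 of them had enough counts to be tested. Gene expression was measured by poly(A)-selected, stranded RNA-seq in primary cardiac fibroblasts of adult C57BL/6 mice at passage 1. The cells were grown in DMEM with 25 mM glucose and 10% FBS, held in 1% FBS for 16 h, and then given vehicle or TGFβ at 10 ng/ml for 24 h, with 3 libraries in each group. TGFβ is a cytokine that turns fibroblasts into contractile myofibroblasts, and the comparison asked which transcripts differ in abundance with this differentiation. The methods of the study give another time in low serum, 24 h before the stimulus for every experiment, with 1% FBS kept through the treatment. No transgene or deletion was named for either group. The study names the cells in both ways, as mouse embryonic fibroblasts in its results text and as cardiac fibroblasts in its methods and labels. The methods speak of biological replicates, but nothing ties a library to a separate animal, so the p-values measure the spread between these libraries, which may be partly technical. The columns of counts name the group and carry no replicate number. The libraries are therefore called vehicle a, b and c and TGFβ a, b and c, in the order of the columns.

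Long noncoding RNAs are transcribed and often spliced like messenger RNAs but are not known to encode a conserved protein. *Neat1* is the scaffold on which paraspeckles, a class of nuclear body, are built, and *Malat1* gathers in nuclear speckles beside splicing factors. The host genes are different in kind: the spliced *Gas5* and *Snhg* RNAs are largely by-products that are turned over through nonsense-mediated decay, while their introns are trimmed to snoRNAs that guide the modification of ribosomal RNA. *Mir22hg* and *Mir17hg* are the primary transcripts from which the microRNAs miR-22 and miR-17~92 are cut. Mature microRNAs and snoRNAs carry no poly(A) tail, so the values below are of the host transcripts and not of their products.

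The microRNAs are shown because they are what the 2 microRNA hosts are known for. The mature sequences are from RefSeq (GRCm38.p6), and the capitals mark the seed, bases 2 to 8, with which a microRNA pairs to its targets. miR-22 lies in an exon of *Mir22hg* on chromosome 11, and the 6 hairpins of miR-17~92 lie in an exon of *Mir17hg* on chromosome 14, all on the plus strand. miR-17-5p and miR-20a-5p have 1 seed in common, and miR-19a-3p and miR-19b-3p another.
miR-22-3p (chr11:75463772-75463793): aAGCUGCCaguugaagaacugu
miR-17-5p (chr14:115043684-115043706): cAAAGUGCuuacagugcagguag
miR-20a-5p (chr14:115044183-115044205): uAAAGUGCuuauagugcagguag
miR-18a-5p (chr14:115043867-115043889): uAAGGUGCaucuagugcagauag
miR-19a-3p (chr14:115044048-115044070): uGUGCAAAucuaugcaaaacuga
miR-19b-3p (chr14:115044358-115044380): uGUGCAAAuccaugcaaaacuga
miR-92a-3p (chr14:115044476-115044496): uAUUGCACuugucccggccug

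The libraries held between 27851677 and 31072338 counts on genes, and the 10 transcripts together took 0.0388% to 0.0520% of them. Of 10 fibroblast markers 8 fell with TGFβ, among them *Pdgfra* and *Tcf21*, and of 9 textbook TGFβ targets tested 6 rose, among them *Postn* and *Acta2*. Among all genes tested, 20.5% rose and 20.1% fell. The fibroblast markers *Col1a1* and *Col1a2* had log2 fold changes of 0.23 and 0.13 and did not pass (edgeR adjusted p = 0.0550 and 0.196). Under DESeq2, limma-voom, no filter on low counts, and without vehicle c, 1 fibroblast marker was called higher. Without vehicle b, 7 were called lower. Markers of other cells were also present. In CPM, each count divided by its TMM-adjusted library size on edgeR's scale, and summed over their lists, endothelial markers ranged from 448 to 691 CPM with vehicle and from 406 to 560 CPM with TGFβ, leukocyte markers from 241 to 344 and from 209 to 312 CPM, cardiomyocyte markers from 38.7 to 60.1 and from 27.6 to 40.8 CPM, and mesothelial markers from 25.1 to 91.8 and from 16.8 to 48.6 CPM. The cardiomyocyte sum was almost all *Tnnt2*, with means of 46.7 CPM with vehicle and 34.0 CPM with TGFβ. The other cardiomyocyte markers in the table, such as *Myh6* and *Ryr2*, had means of at most 0.628 CPM. None of the 8 endothelial, 6 leukocyte, 3 cardiomyocyte and 6 mesothelial markers tested passed by edgeR. Under the other settings, at most 1 endothelial marker was called in each direction, 2 cardiomyocyte and 1 mesothelial marker were called lower, and 0 leukocyte markers were called. Of 7 pericyte and smooth muscle markers *Cspg4* rose and *Notch3* fell, with sums of 267 to 295 CPM with vehicle and 141 to 191 CPM with TGFβ. The lower sum rests on *Notch3*, whose mean went from 207 to 57.3 CPM, whereas that of *Cspg4* went from 19.5 to 53.3 CPM. In these bulk samples, fewer cells of a type and less RNA per cell cannot be told apart, and the part of other cells in the results below was not tested. TGFβ b stood apart in *Gm42418*, a row annotated as a long noncoding gene that overlaps ribosomal RNA sequence: it took 0.904% of that library's counts and 0.145% to 0.355% of the other 5.

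Across the tested transcripts, 2 of 8 changed with TGFβ, both downwards: *Neat1* and *Snhg12*. Genes were called at a Benjamini-Hochberg adjusted p under 0.05 in the quasi-likelihood test of edgeR over all 14334 genes tested, and 40.7% of them were. In one direction, 2 of 8 transcripts were lower against 20.1% of all genes, and 0 of 8 were higher against 20.5% of all genes. At an unadjusted p under 0.05 the edgeR count was 3 of 8, as against 7020 of all 14334 genes. The third was *Snhg18*, the only one higher. At the adjusted threshold neither DESeq2 nor limma-voom called a member higher. The CPM ranges of the groups did not overlap for *Neat1*, *Snhg12* and *Snhg18*, 3 of 8 transcripts, as against 53.3% of all genes. The share of these transcripts that was called was thus not above that of genes at large, and their median log2 fold change was -0.15 beside -0.00 for all genes. The remaining 2 transcripts, *Mir17hg* and *Miat*, had too few counts for the test.

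**Figure D1:**
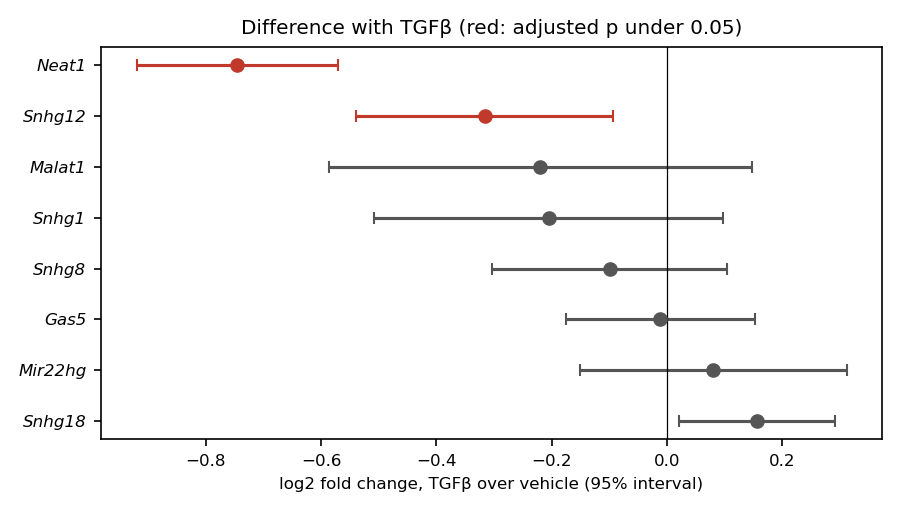
Log2 fold change, TGFβ over vehicle, of the 8 transcripts tested (horizontal axis), from edgeR over 3 libraries per group, with 95% intervals as bars; red marks an adjusted p under 0.05. The intervals of *Neat1* (-0.92 to -0.57) and *Snhg12* (-0.54 to -0.09) lie below 0, that of *Snhg18* (0.02 to 0.29) lies above 0 without passing the adjusted threshold, and the other 5 include 0.

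*Neat1* (ENSMUSG00000092274, chr19:5824708-5845478, minus strand, GENCODE M21 on GRCm38) had the largest difference of the 8 tested. Expression was 42.2, 44.7 and 45.7 CPM in vehicle a, b and c, and 29.5, 24.6 and 25.0 CPM in TGFβ a, b and c. Every TGFβ library lay below every vehicle library, and the gap between the groups was wider than the spread within either. The means were 44.2 ± 1.80 CPM (SD, n = 3) and 26.3 ± 2.72 CPM (SD, n = 3), so that expression with TGFβ was 59.6% of the vehicle mean. *Neat1* fell by 0.75 on the log2 scale (SE 0.08, edgeR adjusted p = 0.000231). The two-sided exact permutation test gave p = 0.1, the smallest that 3 libraries against 3 allow. The counts behind these values were 1325 to 1362 per vehicle library and 686 to 806 per TGFβ library.

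*Neat1* is made as a short and a long RNA from the same start, and only the short one is known to be polyadenylated. The long RNA, like *Malat1*, is known to end by cleavage and a protective triple helix instead of a tail, and it is the long RNA that builds paraspeckles. The last 60 bases of the annotated transcripts, from GENCODE M21, are shown because the libraries were poly(A)-selected. The capitals mark the polyadenylation signal AATAAA, which 27.2% of 141515 annotated transcripts hold in their last 60 bases.
Neat1-202, 3004 bases (chr19:5842307-5842366, minus strand): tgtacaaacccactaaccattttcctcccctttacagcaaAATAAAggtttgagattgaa
Neat1-201, 20771 bases (chr19:5824708-5824767, minus strand): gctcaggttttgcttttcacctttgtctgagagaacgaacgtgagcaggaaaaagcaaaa
Malat1-201, 6983 bases (chr19:5795690-5795749, minus strand): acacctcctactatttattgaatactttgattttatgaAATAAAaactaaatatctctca
In Neat1-202 the signal begins 20 bases before the end and in Malat1-201 22 bases before it, and these letters are not in the last 60 bases of Neat1-201. These are annotated ends, and where the RNAs in these libraries end was not measured. The letters marked in Malat1-201 therefore do not show that its RNA carries a tail. The deposited counts are per gene, so the share of the short and the long RNA in the decrease of *Neat1* was not measured.

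More genes of paraspeckle proteins rose than fell. Of 18 listed and tested, 11 rose, 1 fell and 6 did not pass, with a median log2 fold change of 0.21 beside -0.00 for all genes. Over all genes, 20.5% rose and 20.1% fell. *Hnrnpa1*, a heterogeneous nuclear ribonucleoprotein, rose by a log2 fold change of 0.62 (SE 0.05, edgeR adjusted p = 7.16e-05), from 123 ± 4.48 to 189 ± 8.40 CPM (SD, n = 3 each). *Pspc1*, a core paraspeckle protein, rose by 0.59 (SE 0.08, edgeR adjusted p = 0.000866), from 9.53 ± 0.522 to 14.3 ± 0.997 CPM (SD, n = 3 each). The RNA-binding protein *Taf15* rose by 0.34 (SE 0.04) on the same scale. The 2 other core proteins of the list did not pass, *Nono* with a log2 fold change of -0.02 and *Sfpq* with 0.11 (edgeR adjusted p = 0.716 and 0.0868). *Nudt21*, a cleavage factor known to take part in forming the polyadenylated end of the short *Neat1* RNA, was the 1 that fell, with a log2 fold change of -0.13 (SE 0.04, edgeR adjusted p = 0.0355). Over the alternatives 8 to 11 rose, 10 of them without TGFβ b, and 8 without vehicle b, TGFβ a or TGFβ c. The 1 lower call was lost under DESeq2, with no filter on low counts and without any 1 library other than TGFβ c.

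*Malat1* (ENSMUSG00000092341, chr19:5795690-5802672, minus strand) was the most counted of the 10 transcripts, with 37.7% to 51.2% of their counts in each library. Expression was 235, 231 and 236 CPM in vehicle a, b and c, and 244, 213 and 147 CPM in TGFβ a, b and c. The vehicle libraries were nearly equal, whereas the TGFβ libraries ran from above the vehicle range to well below it, so the groups overlapped. The coefficient of variation was 1.20% with vehicle and 24.6% with TGFβ. Its log2 fold change was -0.22 (SE 0.16, 95% interval -0.59 to 0.15, edgeR adjusted p = 0.307). TGFβ c decided this value: without it the log2 fold change was -0.04 (edgeR adjusted p = 0.622), and without TGFβ a it was -0.38 (edgeR adjusted p = 0.0836). *Neat1*, which lies 22035 bases from *Malat1* on the same strand, had 29.5, 24.6 and 25.0 CPM in TGFβ a, b and c, so TGFβ a was the highest of its group in both genes, whereas the lowest was TGFβ c in *Malat1* and TGFβ b in *Neat1*.

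Nuclear speckles are where *Malat1* gathers. Genes of nuclear speckle and SR splicing proteins rose in 9 of 18 cases, fell in 1 and did not pass in 8. Their median log2 fold change was 0.12, and among all genes 20.5% rose and 20.1% fell. The SR proteins *Srsf7*, *Srsf9* and *Srsf2* rose by 0.36 (SE 0.05), 0.25 (SE 0.04) and 0.25 (SE 0.05), and *Sf3b1*, a subunit of the U2 snRNP, by 0.28 (SE 0.04). *Srsf4* fell, with a log2 fold change of -0.16 (SE 0.05, edgeR adjusted p = 0.0311). Over the alternatives 6 to 8 rose, always fewer than the 9 above, and 0 to 2 fell, with 6 risers without vehicle b or TGFβ a. Without TGFβ b, 8 rose and 0 fell. *Son* and *Srrm2*, the proteins on which speckles are built, had log2 fold changes of -0.02 and -0.02 and did not pass.

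**Figure D2:**
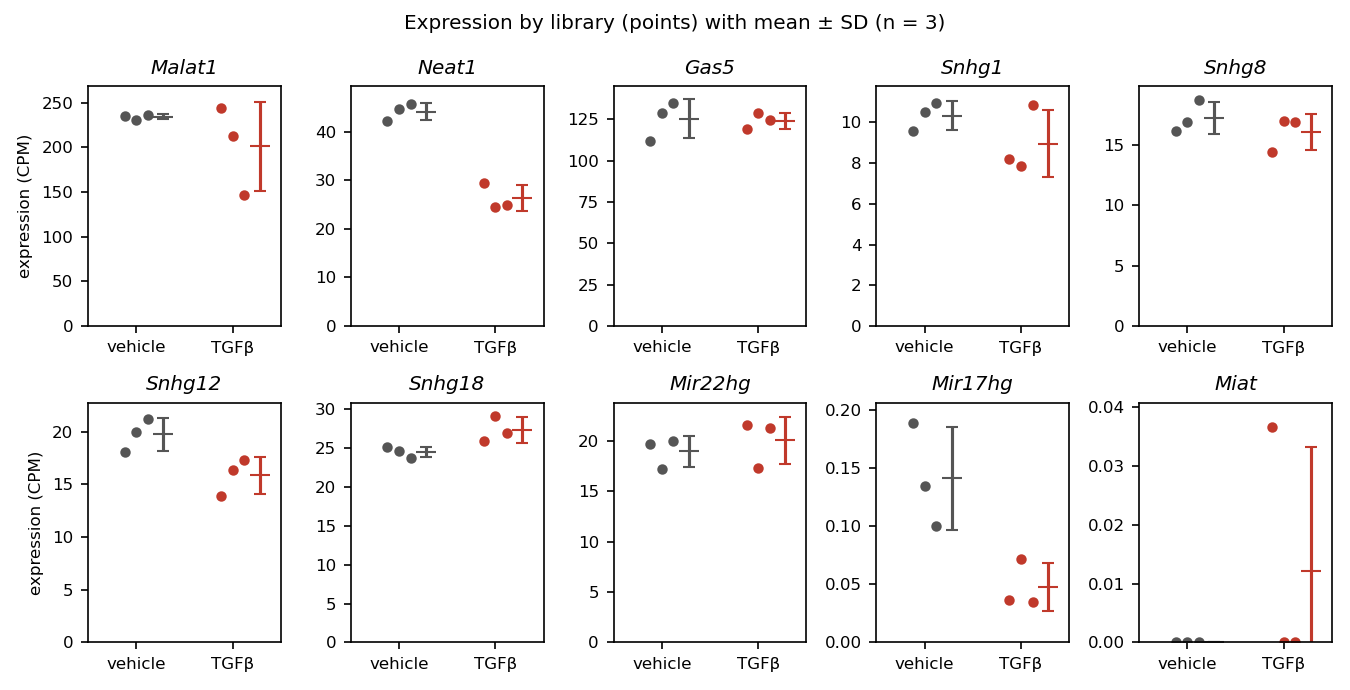
Expression in CPM (vertical axes, each from 0 on its own scale) of the 10 transcripts in the 3 vehicle and 3 TGFβ libraries, shown as points from a to c, with mean ± SD (n = 3) beside them. Of the 8 transcripts tested, the groups are apart for *Neat1*, *Snhg12* and *Snhg18*, the 3 TGFβ libraries of *Malat1* run from 147 to 244 CPM, and *Mir17hg* and *Miat* stay under 0.20 CPM.

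*Snhg12* (ENSMUSG00000086290, chr4:132308623-132311024, plus strand) was the second transcript to fall. Expression was 18.1, 20.0 and 21.2 CPM in vehicle a, b and c, and 13.9, 16.3 and 17.3 CPM in TGFβ a, b and c. The groups did not overlap, but the highest TGFβ library was within 1 CPM of the lowest vehicle library. The means were 19.7 ± 1.55 and 15.8 ± 1.77 CPM (SD, n = 3 each), 80.3% of the vehicle mean. *Snhg12* fell by 0.32 on the log2 scale (SE 0.10, edgeR adjusted p = 0.0319; two-sided exact permutation test p = 0.1). The call depended on which library was left out. Without vehicle b, vehicle c, TGFβ a or TGFβ b the edgeR adjusted p was 0.0855, 0.0930, 0.0875 and 0.0681, and without vehicle a or TGFβ c it was 0.0280 and 0.0214. The log2 fold change was smallest in size, -0.23, without TGFβ a and largest, -0.39, without TGFβ c.

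The snoRNAs of *Snhg12* are shown as the products of the host that fell, with the 1 snoRNA of *Snhg18*. They are GENCODE M21 entries on GRCm38. Capitals mark, in the H/ACA snoRNAs, an ACA in the last 10 bases (held by 47.4% of all 1507 annotated snoRNAs, of every kind). Snora44 holds no ACA there and has no capitals. In the C/D snoRNAs the capitals mark TGATGA (26.1% of the same 1507) and a CTGA in the last 20 bases (35.4%).
Snora16a (chr4:132309464-132309600, plus strand): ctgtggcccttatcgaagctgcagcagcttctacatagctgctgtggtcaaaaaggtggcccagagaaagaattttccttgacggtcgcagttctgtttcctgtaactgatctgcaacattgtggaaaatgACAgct
Snora44 (chr4:132309941-132310069, plus strand): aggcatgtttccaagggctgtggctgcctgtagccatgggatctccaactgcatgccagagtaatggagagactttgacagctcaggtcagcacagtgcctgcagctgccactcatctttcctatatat
Snora61 (chr4:132310240-132310369, plus strand): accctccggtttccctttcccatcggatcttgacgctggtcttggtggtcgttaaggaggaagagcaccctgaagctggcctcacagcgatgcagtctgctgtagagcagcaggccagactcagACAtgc
Snord99 (chr4:132310691-132310764, plus strand): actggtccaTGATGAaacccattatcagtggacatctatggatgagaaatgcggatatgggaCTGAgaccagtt
Snord123 (chr15:32241853-32241923, minus strand): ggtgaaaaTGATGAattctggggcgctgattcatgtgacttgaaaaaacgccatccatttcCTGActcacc
Each *Snhg12* snoRNA lies wholly within an exon of at least 1 of the 10 annotated *Snhg12* transcripts, where its reads cannot be told from those of the host. *Snord123* lies in an intron of *Snhg18*.

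*Snhg18* (ENSMUSG00000096956, chr15:32240565-32244662, minus strand), a host with a single annotated transcript, had the opposite sign. Expression was 25.1, 24.6 and 23.7 CPM in vehicle a, b and c, and 25.8, 29.1 and 26.9 CPM in TGFβ a, b and c. The groups did not overlap, with TGFβ above, although vehicle a and TGFβ a were close. With a log2 fold change of 0.16 (SE 0.06, 95% interval 0.02 to 0.29), an unadjusted p of 0.0286 and an edgeR adjusted p of 0.0655, it did not pass. It passed once, without TGFβ a (edgeR adjusted p = 0.0494), and was below a log2 fold change of 0.20 in every fit. The two-sided exact permutation test gave p = 0.1.

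*Gas5* (ENSMUSG00000053332, chr1:161034422-161038539, plus strand), named for its accumulation in growth-arrested cells, had the smallest difference of the 8 tested. Expression was 112, 129 and 135 CPM in vehicle a, b and c, and 119, 129 and 124 CPM in TGFβ a, b and c. The TGFβ libraries all lay inside the vehicle range. The log2 fold change was -0.01 (SE 0.07, edgeR adjusted p = 0.917), and its 95% interval of -0.17 to 0.15 bounds the difference in either direction. Its sign turned when vehicle b, vehicle c or TGFβ a was left out. Of its 25 annotated transcripts, 20 retain an intron, and in the others all 10 of its annotated snoRNA entries are intronic. The exons of all 25 together cover 3760 of the gene's 4118 bases. In a retained intron, reads of a snoRNA cannot be told from those of the host.

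*Snhg1* (ENSMUSG00000108414, chr19:8723475-8726443, plus strand) hosts a row of C/D box snoRNAs, of which 8 are annotated here. Expression was 9.55, 10.5 and 10.9 CPM in vehicle a, b and c, and 8.19, 7.84 and 10.8 CPM in TGFβ a, b and c. TGFβ a and b lay below the vehicle range and TGFβ c lay inside it. The log2 fold change was -0.20 (SE 0.13, 95% interval -0.51 to 0.10, edgeR adjusted p = 0.251). Without TGFβ c it was -0.37 with an edgeR adjusted p of 0.0206, so for *Snhg1* that library decided whether a call was made. TGFβ c was high in *Snhg1* and low in *Malat1*, relative to the other libraries of its group.

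*Snhg8* (ENSMUSG00000104960, chr3:123507552-123508404, minus strand) carries the H/ACA snoRNA Snora24 in an intron of its spliced transcripts. With the 1 transcript that retains an intron, its annotated exons cover all 853 bases of the gene, Snora24 included. Expression was 16.2, 16.9 and 18.7 CPM in vehicle a, b and c, and 14.4, 17.0 and 16.9 CPM in TGFβ a, b and c. TGFβ a was the lowest of the 6 libraries and the other libraries overlapped. A log2 fold change of -0.10 did not pass (SE 0.09, 95% interval -0.30 to 0.11, edgeR adjusted p = 0.408).

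The start of a snoRNA host transcript matters for its control, since many hosts begin with a run of pyrimidines of the kind that ties ribosomal protein messenger RNAs to growth signals. The 40 bases around the annotated RefSeq start (GRCm38.p6, 20 before and 20 from the start base on) are shown for the 5 hosts, with the pyrimidine run that opens the transcript in capitals.
Gas5, inner start (chr1:161035146-161035185, plus strand): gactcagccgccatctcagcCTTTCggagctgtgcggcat
Snhg8 (chr3:123508317-123508356, minus strand): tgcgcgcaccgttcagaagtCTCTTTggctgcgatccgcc
Snhg12 (chr4:132308658-132308697, plus strand): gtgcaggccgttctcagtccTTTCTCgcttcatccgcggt
Snhg18 (chr15:32244643-32244682, minus strand): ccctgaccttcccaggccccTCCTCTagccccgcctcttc
Snhg1 (chr19:8723467-8723506, plus strand): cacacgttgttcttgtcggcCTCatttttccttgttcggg
A C followed by 4 pyrimidines stood exactly at the annotated start in the windows of *Snhg8*, the inner start of *Gas5* and *Miat*, 3 of the 10 windows of 9 members, as against 2.51% of 32851 RefSeq windows. *Snhg12* and *Snhg18* open with a T instead and hold such letters within 10 bases of it. The snoRNA hosts with these letters at the start or within 10 bases of it were *Gas5* (inner start), *Snhg8*, *Snhg12* and *Snhg18*. This looser rule holds for 30.7% of all windows. Whether these letters bear on the differences with TGFβ was not tested. *Neat1* had no window, and the *Mir17hg* window is not at the start of the gene as GENCODE gives it: it lies inside the gene, over miR-20a and miR-19b-1, so nothing is read from it for that host. The RefSeq starts of *Gas5*, *Snhg1*, *Snhg8*, *Snhg12* and *Miat* also lie inside the GENCODE gene. That of *Miat*, a transcript at the floor, is 112228948, where GENCODE begins the gene at 112229395 on the minus strand. Of the motifs searched on both strands of the 300-base windows, CAGACA, letters found in SMAD binding sites, was in those of *Snhg12* and of the outer start of *Gas5*, not of the inner start shown here (21.0% of all windows), CCGGAA in *Malat1* and *Mir22hg* (14.9%) and TTTCGCGC in *Snhg1* (0.323%). The MYC site CACGTG was in none of the 10 member windows (7.15% of all windows), nor was the AP-1 site TGAGTCA (5.20%) or the palindromic SMAD site GTCTAGAC (0.213%). None of these motifs contains another. The 10 windows include that of *Mir17hg*, so the promoter at the GENCODE start of this host was not searched for them.

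The proteins that package snoRNAs were described beside the hosts. Of 12 tested snoRNP proteins 6 rose and 0 fell by edgeR, where 20.5% of all genes rose and 20.1% fell. Their median log2 fold change was 0.27, and 0 of them fell in every other fit too. *Nop56* and *Nop58*, the core of C/D box particles, rose by 0.48 (SE 0.09, edgeR adjusted p = 0.00378) and 0.43 (SE 0.06, edgeR adjusted p = 0.000800). *Nop10*, of H/ACA particles, rose by 0.36 (SE 0.05) and the assembly helicase *Ruvbl2* by 0.37 (SE 0.05). Of 15 other snoRNA hosts tested, 3 rose, 1 fell and 11 did not pass, beside 40.7% of all genes called in either direction. Without vehicle a, 1 of these hosts rose and 2 fell. *Snhg6* rose from 15.1 ± 0.570 to 19.6 ± 2.63 CPM (SD, n = 3 each, log2 fold change 0.38, SE 0.10), as did *Nop56*, which is a host as well as a protein gene, and *Eef1b2*, a translation elongation factor, with 0.16 (SE 0.05). *Snhg11* fell, with a log2 fold change of -1.30 (SE 0.30) at under 1 CPM. *Zfas1* and *Snhg5*, hosts known to be degraded by nonsense-mediated decay, had log2 fold changes of -0.28 and -0.13 and did not pass. Of 12 decay factors 2 rose, *Upf2* (0.19) and *Smg5* (0.18), and 2 fell, *Upf3a* (-0.27) and *Smg6* (-0.18), beside the same 40.7% of all genes. *Upf1*, the central helicase, had a log2 fold change of -0.05 and did not pass. The count of decay factors that rose was 1 under DESeq2 and without vehicle a, vehicle b, TGFβ a or TGFβ b.

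**Figure D3:**
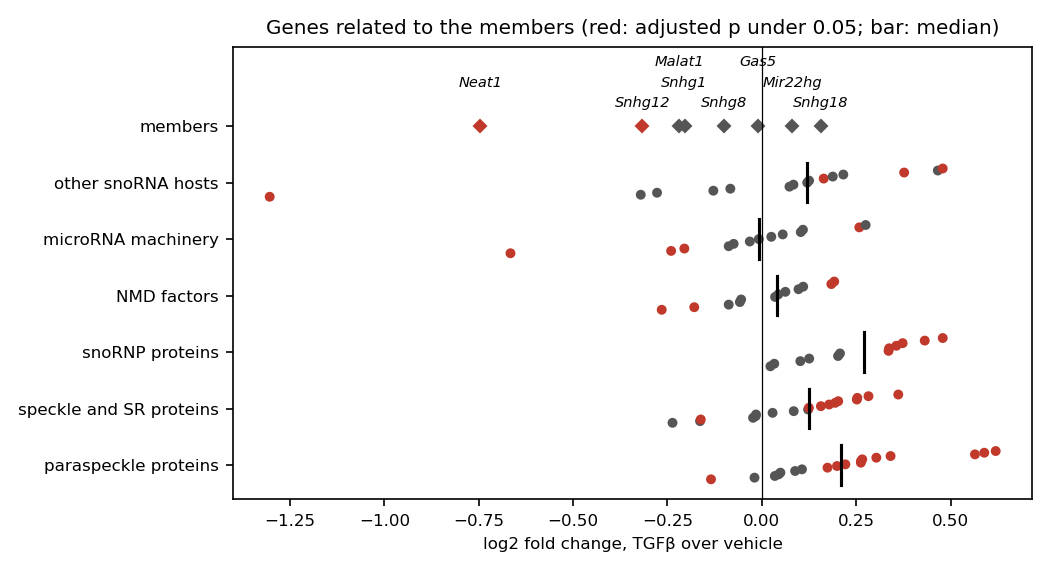
Log2 fold change, TGFβ over vehicle (horizontal axis), of each tested gene in 6 lists related to the transcripts, with the 8 transcripts tested as diamonds on top; red marks an edgeR adjusted p under 0.05 and the black bar a list's median. The snoRNP and paraspeckle protein medians lie at 0.27 and 0.21, and the 8 transcripts run from -0.75 (*Neat1*) to 0.16 (*Snhg18*), with *Neat1* and *Snhg12* in red.

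*Mir22hg* (ENSMUSG00000085148, chr11:75461539-75466676, plus strand) was expressed at 19.7, 17.2 and 20.0 CPM in vehicle a, b and c, and at 21.6, 17.3 and 21.3 CPM in TGFβ a, b and c. The lowest library of each group was nearly the same and the groups overlapped. The log2 fold change was 0.08 (SE 0.10, 95% interval -0.15 to 0.31, edgeR adjusted p = 0.557). *Mir22hg* shares 206 exon bases, 10.7% of its exons, with the coding gene *Tlcd2* on the same strand, and how reads in that stretch were assigned is not given in the sources used here. *Tlcd2* had a log2 fold change of -0.30 (edgeR adjusted p = 0.166). Of 5 textbook targets of miR-22, 0 were called by edgeR in either direction, beside 40.7% of all genes. The count was 0 in every other fit too. The log2 fold changes of these targets ran from -0.23 (*Cdk6*, edgeR adjusted p = 0.0804) to 0.04 (*Sirt1*).

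*Mir17hg* (ENSMUSG00000089726, chr14:115042879-115046727, plus strand), host of the oncogenic miR-17~92 cluster, was near the detection limit. It had 6, 4 and 3 counts in vehicle a, b and c, and 1, 2 and 1 counts in TGFβ a, b and c. The groups did not overlap, but with 13 counts against 4 the ratio per library size was 0.335, with an exact 95% interval of 0.0797 to 1.09 that includes equality and covers counting error only. No fold change was fitted. Most primary microRNA transcripts are cut and degraded in the nucleus, and the abundance of the microRNAs was not measured.

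Of 9 textbook targets of miR-17~92 that were tested, 4 rose, 0 fell and 5 did not pass by edgeR. Without vehicle a, vehicle b, TGFβ b or TGFβ c, 3 of these targets rose. Across all genes 20.5% rose and 20.1% fell. *Thbs1* (thrombospondin 1) rose by 1.80 on the log2 scale (SE 0.12) and *Ctgf* by 1.49 (SE 0.09), and both are known TGFβ targets, *Ctgf* standing on that list too. *Cdkn1a* rose by 0.57 (SE 0.11) and *Tgfbr2*, the type II receptor of TGFβ, by 0.34 (SE 0.09). *Bcl2l11*, a target through which the cluster is known to act on survival, had a log2 fold change of 0.09 and did not pass. Among 6 MYC and E2F factors, which are known to bind the *Mir17hg* promoter, *Mycn* fell from 6.46 ± 1.17 to 3.25 ± 0.209 CPM (SD, n = 3 each, log2 fold change -0.99, edgeR adjusted p = 0.00158). *Max* rose by 0.21 (SE 0.04), the 1 factor to do so (2 without TGFβ b), and *Myc* itself had a log2 fold change of 0.19 and did not pass (edgeR adjusted p = 0.102). *Mcm7*, which hosts the related miR-106b~25 cluster, had a log2 fold change of -0.16 (edgeR adjusted p = 0.130).

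Of 19 other microRNA hosts tested 4 rose, 5 fell and 10 did not pass, where 20.5% of all genes rose and 20.1% fell. Only 2 of these hosts rose without vehicle b, vehicle c, TGFβ a or TGFβ b. *Slit2* and *Slit3*, guidance ligands that host microRNAs of 1 family, went in opposite directions, with log2 fold changes of 1.21 (SE 0.07, edgeR adjusted p = 2.00e-05) and -1.10 (SE 0.21, edgeR adjusted p = 0.00418). *Carmn*, the noncoding host of miR-143 and miR-145 known from smooth muscle, fell from 2.59 ± 0.117 to 1.41 ± 0.406 CPM (SD, n = 3 each, log2 fold change -0.88, edgeR adjusted p = 0.0129). *Ctdspl*, a phosphatase gene that hosts a miR-26 copy, fell by 0.81 on the log2 scale (SE 0.08). Of 13 proteins of microRNA processing and action 1 rose (3 without TGFβ c) and 3 fell: *Tnrc6a* by 0.26, and *Ago4*, *Tnrc6c* and *Prkra* with log2 fold changes of -0.67, -0.24 and -0.21. Among all genes 40.7% were called in either direction. *Drosha*, *Dgcr8* and *Dicer1*, which cut the microRNAs, had log2 fold changes of 0.11, 0.06 and -0.01 and did not pass.

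*Miat* (ENSMUSG00000097767, chr5:112213228-112229395, minus strand), a long noncoding RNA known from the infarcted heart and the nervous system, was at the floor. It had 0 counts in vehicle a, b and c, and 1, 0 and 0 counts in TGFβ a, b and c. A count of 0 over the vehicle group allows up to 3 counts, or 3.34e-06% of that group's counts, and no fold is given. *Miat* also had the largest share of 75-base windows that occur in transcripts of other annotated genes (21.0%), as against 7.19% for *Mir22hg*, 6.47% for *Snhg12*, 5.51% for *Malat1* and 0.770% for *Neat1*. Genes annotated at the same place, on either strand, count as other genes here. *Miat* shares 2260 exon bases, 24.3% of its exons, with *Gm26953* on the opposite strand. These shares are therefore not a measure of reads that match other places in the genome.

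Levels of different genes were compared as CPM per kb of annotated exon sequence. With vehicle, *Malat1* (33.5 ± 0.402) and *Gas5* (33.3 ± 3.14, SD, n = 3 each) were highest and their ranges overlapped. Below them came *Snhg8* (20.2 ± 1.56), *Snhg18* (16.5 ± 0.459), *Mir22hg* (9.86 ± 0.805), *Snhg12* (8.22 ± 0.647), *Snhg1* (3.48 ± 0.238), *Neat1* (2.13 ± 0.0865) and *Mir17hg* (0.0400 ± 0.0125), each with a range apart from the next. With TGFβ the order of the neighbouring pairs was the same except that *Snhg8* (18.9 ± 1.73) and *Snhg18* (18.4 ± 1.12) overlapped, as did *Malat1* (28.8 ± 7.09) and *Gas5* (33.0 ± 1.28), whose means changed places. The order rests on the annotation: *Gas5* has 3760 exon bases in all but 665 in its longest spliced transcript, on which its vehicle level would be 188 CPM per kb. By the longest spliced transcript, the vehicle levels of *Snhg1*, *Snhg12* and *Mir22hg* were 14.6, 12.8 and 10.8 CPM per kb, the reverse of their order above. *Neat1* is divided by the 20771 bases of its long RNA. The libraries were poly(A)-selected, and *Malat1* and the long *Neat1* RNA are known to end without a tail. How far poly(A) selection lowered their levels beside those of the other transcripts was not measured.

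Pairs of transcripts varied together or against each other. Over the 6 libraries, the closest pair was *Snhg8* and *Snhg12*, with a Pearson r of log2 CPM of 0.86, and of 0.95 for deviations from the group means. *Neat1* and *Snhg18* were opposed, with r of -0.90 and -0.82. *Malat1* and *Neat1*, which are neighbours in the genome, had r of 0.61 and 0.60. The libraries share the 2 groups and 6 points carry little, so these values are a description. The search for the gene most like each transcript took in the 10365 genes whose mean reached 5 CPM. With the highest of so many r over 6 libraries taken, a high value follows from the search itself. A transcript whose groups differ will also tend to draw a gene that differs in the same direction. For *Neat1* it was *Samhd1*, a dNTP hydrolase (r = 0.997), which fell by 0.54 on the log2 scale (SE 0.06, edgeR adjusted p = 0.000489). For *Snhg12* it was *Rnf157* (r = 0.998), with a log2 fold change of -0.53 (SE 0.13, edgeR adjusted p = 0.0155), and for *Snhg18* it was *Gfm2* (r = 0.993), with 0.18 (SE 0.06, edgeR adjusted p = 0.0493). The nearest genes to *Malat1*, *Gas5*, *Snhg1*, *Snhg8* and *Mir22hg* were *Plxna2*, *Dock8*, *Csk*, *Arpc3* and *Mmd* (r of 0.995, 0.969, 0.993, 0.987 and 0.995), and none of these 5 passed the edgeR test.

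Several coding genes beside the hosts passed the test. *Snhg1* starts 105 bases from *Slc3a2*, the heavy chain of amino acid transporters, on the opposite strand. *Slc3a2* rose from 180 ± 9.33 to 253 ± 2.23 CPM (SD, n = 3 each, log2 fold change 0.49, SE 0.05, edgeR adjusted p = 0.000192), beside -0.20 for *Snhg1*. *Snhg18* lies 147 bases from *Sema5a*, a semaphorin on the opposite strand, which fell from 23.4 ± 1.60 to 15.6 ± 3.18 CPM (SD, n = 3 each, log2 fold change -0.59, SE 0.14, edgeR adjusted p = 0.0121), beside 0.16 for *Snhg18*. Next to *Snhg8*, *Ndst3* at 17761 bases fell with a log2 fold change of -1.82 (SE 0.17, edgeR adjusted p = 0.000146), and *Prss12* at 954 bases had -0.52 (edgeR adjusted p = 0.0504). The differences between host and neighbour were not tested. *Frmd8*, 4223 bases from *Neat1*, had a log2 fold change of 0.02 and did not pass (edgeR adjusted p = 0.742). Beside *Snhg12*, *Trnau1ap* at 738 bases had a log2 fold change of -0.11 (edgeR adjusted p = 0.309).

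The hosts contain 32 annotated snoRNA and microRNA entries, 10 in *Gas5*, 8 in *Snhg1*, 5 in *Snhg12*, 1 each in *Snhg8*, *Snhg18* and *Mir22hg*, and 6 in *Mir17hg*. Snord80 in *Gas5* and Snora16a in *Snhg12* each have more than 1 entry at overlapping positions. Only *Snord123* had a row of its own, with 0, 1 and 3 counts in vehicle a, b and c and 0, 1 and 0 counts in TGFβ a, b and c. No level of a product can be read from these libraries.

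Across 12 other settings, *Neat1* was called in 12, with log2 fold changes from -0.83 to -0.70, and without TGFβ b it was -0.70 (edgeR adjusted p = 0.00132). *Snhg12* was called in 8 of 12, *Snhg1* and *Snhg18* in 1 each, and *Malat1*, *Gas5*, *Snhg8* and *Mir22hg* in 0. For each of the 8, the range over scalings, tools and filters was narrower than that over left-out libraries.

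**Figure D4:**
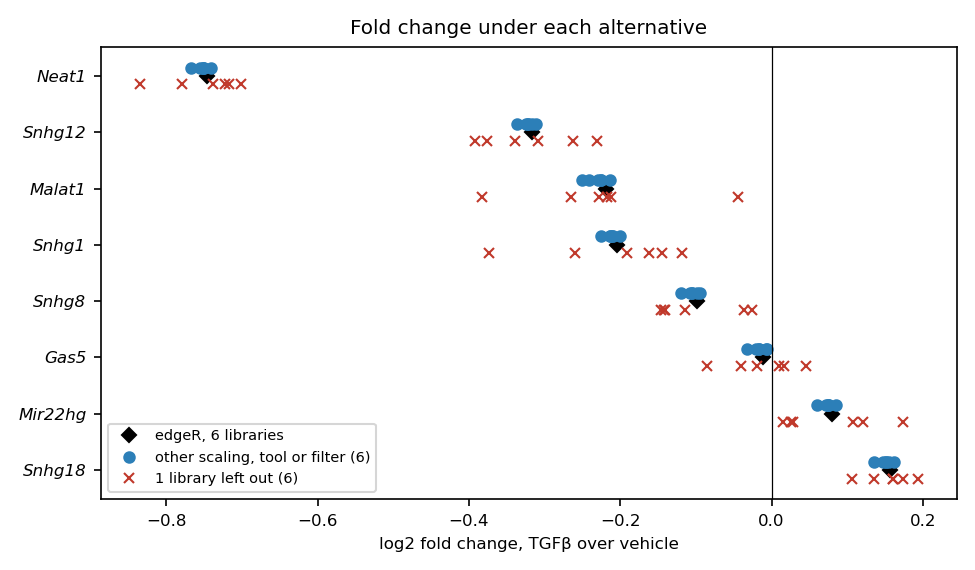
Log2 fold change, TGFβ over vehicle (horizontal axis), of the 8 transcripts under the edgeR fit of 6 libraries (diamonds), 6 other scalings, tools or filters (circles) and 6 fits with 1 library left out (crosses). *Neat1* stays between -0.83 and -0.70, *Malat1* runs from -0.38 to -0.04, and *Gas5* lies on both sides of 0.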

How the data were processed

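RNA-seq was performed in 3 vehicle and 3 TGFβ libraries of primary cardiac fibroblasts. Per the study's methods, poly(A) RNA was prepared as stranded libraries, single-end reads of 75 bases were aligned to mm10, and groups were compared with DESeq2. The aligner, the counting tool, its use of strand and the gene annotation are not given in the sources used here. The authors deposited whole-number counts of reads per gene, without normalization. The table also holds their mean normalized count, log2 fold change with its error and statistic, p-value and adjusted p, which were not used. The libraries held 27851677 to 31072338 counts, and the biological coefficient of variation was 7.97%.

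From the counts, edgeR 4.0.16 (R 4.3.3) gave TMM factors, filterByExpr kept 14334 of 25140 genes, and the quasi-likelihood test with Benjamini-Hochberg adjustment compared the groups without covariates. The SE is the log2 fold change over the root of the F statistic. Single transcripts were also compared by a two-sided exact permutation test of CPM. Of the gene identifiers, 25086 matched GENCODE M21. Alternatives were DESeq2 size factors, upper quartile scaling, DESeq2 1.42.0, limma-voom (3.58.1), no filter, 1 CPM in 3 libraries, and each library left out. The model fit was tested on simulated data. The transcripts, the 19 gene lists and the tests were chosen with earlier results of these data known. Named genes are the 10 transcripts, up to 4 called genes per list with the largest absolute log2 fold change and groups that do not overlap, the nearest coding neighbours and, per transcript, the gene most like it over the 6 libraries. Other list genes were named after their values were seen. Some results for genes that these rules take in are not reported here.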

Additional observations from a re-analysis of the deposited data

How the results depend on the processing

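With each library left out in turn, 1 to 3 of the transcripts were called, 1 to 3 lower and 0 to 1 higher, and with another scaling, tool or filter the count was 2 in every case, both lower. The log2 fold change of *Gas5* turned its sign without vehicle b (0.0098), without vehicle c (0.045) and without TGFβ a (0.016), and ran from -0.086 to 0.045 over all alternatives, never called. *Neat1* kept its direction and its call in 12 of 12 alternatives (adjusted p 1.24e-13 to 0.00154). *Snhg12* kept its direction in 12 (-0.39 to -0.23) and its call in 8 (adjusted p 0.0214 to 0.0930), lost without vehicle b, vehicle c, TGFβ a or TGFβ b, and the cause was not tested. *Snhg1* ran from -0.37 to -0.12, *Snhg18* from 0.11 to 0.19, *Snhg8* from -0.15 to -0.03 and *Mir22hg* from 0.02 to 0.17. Over all genes, 4489 to 5481 were called with a library left out and 5038 (DESeq2) to 5840 otherwise, and scaling moved the median of all genes by at most 0.02. Searching the pyrimidine run within 10 bases of the start in place of the start base raised the member windows that hold it from 3 to 6, beside 30.7% of all windows. No paired analysis was possible because the deposited columns name the group but carry no replicate number. Counts were too few to test *Mir17hg* and *Miat*, with 1 to 6 and 0 to 1 per library.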

Other observations

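Long noncoding and coding genes differ in level, so their calls are given side by side as a description. Of 638 GENCODE long noncoding genes tested (of 3456 in the table), 56 were higher and 68 lower, or 19.4% called by edgeR, beside 43.4% of 12973 protein-coding genes. Their median levels were 0.995 and 23.5 CPM and their median standard errors of the log2 fold change 0.23 and 0.07. Of 9 other long noncoding RNAs known from the heart, from fibroblasts or from most cells, 0 rose and 1 fell: *Trp53cor1*, known as a p53-induced transcript, went from 3.28 ± 0.349 to 1.95 ± 0.327 CPM (SD, n = 3 each, log2 fold change -0.75, edgeR adjusted p = 0.00957). *Tug1*, at 77.5 ± 1.58 and 79.7 ± 3.01 CPM (SD, n = 3 each), had a log2 fold change of 0.04 and did not pass. The imprinted microRNA host *Rian*, singled out after its values were seen, rose from 55.4 ± 10.5 to 87.8 ± 9.72 CPM (SD, n = 3 each, log2 fold change 0.66, edgeR adjusted p = 0.00626), while *Meg3* and *Mirg* of the same cluster had 0.06 and 0.11 and did not pass.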
